A study of Mus musculus with 192 samples.

Results

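A set of 48 cell cycle and DNA replication genes was followed through the responses of mouse dendritic cells to 7 ligands of pattern recognition receptors. The members were given by name, as genes with textbook roles in cell division, and all 48 were among the 23481 genes of the count table. They comprised 4 genes of the D cyclins and their kinase Cdk4, 2 inhibitors of cyclin-dependent kinases, 15 genes of the G1/S transition and of DNA replication, 5 genes of nucleotide supply, 20 genes of G2 and mitosis, and the pair Stmn1 and Hmgb2, which are abundant in dividing cells. Together they took 63490 unique molecular identifier (UMI) counts, 0.186% of all counts, where a UMI marks 1 original cDNA molecule. Cdkn1a held 40.8% of these counts, Pcna 18.7% and Ccnd2 14.3%. These are shares of counts, which are not scaled by transcript length.

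The cells were bone marrow-derived dendritic cells of female C57BL/6J mice aged 6 to 8 weeks, grown with 15 ng/mL GM-CSF and plated at 100000 cells per well. All groups shared these conditions and a stimulation of 6 h, and the labels give no dose. The groups were Ctrl, 7 single ligands, the 21 pairs and the 35 triplets, that is 64 groups of 3 libraries and 192 libraries. The ligand names follow the labels. They are PAM, HMW, SeV, CpGB, lipopolysaccharide (LPS), Zymosan (labelled Zymosan depleted) and cGAMP (labelled 3',3'-cGAMP), a cyclic dinucleotide sensed by STING. The labels do not say whether the 3 libraries of a group came from separate cultures or animals, so the p-values measure the spread between these libraries, which may be technical. Total counts per library ran from 46564 (Zymosan + SeV replicate 2) to 610234 (PAM + HMW + SeV replicate 3), with a median of 171616. Ctrl was the shallowest group, at 61823 to 89530 counts, so that 3 counts over the Ctrl libraries corresponded to 11.0 CPM, the unit of counts scaled to a common library total that is used below.

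Before any result, 6 triplet libraries stood apart from their groups. Over the 500 most variable tested genes outside the set, each of them correlated better with another group than with the other libraries of its own, by more than 0.15 in Pearson's r, a rule chosen after seeing the data. The library labelled HMW + SeV + CpGB replicate 1 had r = 0.222 with its own group and 0.791 with cGAMP + CpGB. The library labelled HMW + cGAMP + CpGB replicate 1 had r = 0.239 with its own group and 0.776 with SeV + CpGB. The other 4 were the libraries labelled LPS + SeV + CpGB replicate 3 (0.467 against 0.732 for LPS + HMW + SeV), PAM + HMW + SeV replicate 3 (0.558 against 0.77 for PAM + LPS), HMW + SeV + cGAMP replicate 1 (0.691 against 0.864 for HMW + Zymosan + cGAMP) and Zymosan + SeV + cGAMP replicate 1 (0.693 against 0.893 for HMW + cGAMP). All libraries were kept under their labels. The labels of these libraries may not match their contents, which was not tested, and the values of groups with and without a ligand that hold them depend on the labels. Without these 6, none of the 91 ligand averages of the tested members described below and none of their 39 steps in the number of ligands moved to the other side of the test's threshold, and the largest shifts were 0.0833 and 0.0608 on the log2 scale. Values without them stand beside some of the results, and the levels of single groups and the likeness of members are given with all libraries.

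Cells enter the division cycle when D cyclins, bound to Cdk4, begin to inactivate the retinoblastoma protein and thereby free E2F transcription factors. E2F factors drive cyclin E, the licensing factors Cdt1 and Cdc6, the Mcm helicase subunits and Pcna, the sliding clamp of DNA polymerases. The inhibitors p21 (Cdkn1a) and p27 (Cdkn1b) bind cyclin-dependent kinases and halt the cycle. Mitotic genes such as Mki67, Top2a, Cdk1 and the kinesins peak later, and many are controlled through CHR and CCAAT elements of their promoters. Dendritic cells grown from marrow with GM-CSF divide early in culture and largely stop as they mature, and several of the genes named here also have roles outside division, as Pcna has in DNA repair.

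The promoters of 4 members are shown because the results below turn on them or because a searched motif lay in them. They come from the RefSeq promoter table of build GRCm38.p6, the assembly also called mm10, which covered 39 of the 48 members. Each is given 5' to 3' on the gene's strand, up to the base before the annotated gene, with motif letters in capitals. The Pcna stretch is chr2:132253315-132253430 and the Ccne1 stretch chr7:38107535-38107740, both on the minus strand, and neither stretch holds a searched motif, although the 300-base window searched for Pcna holds the reverse complement of CCAAT outside it. The Bub1b stretch is chr2:118597961-118598210 on the plus strand, with the core of the interferon-stimulated response element first and then the reverse complement of CCAAT in capitals. The Cdkn1a stretch is chr17:29090729-29090975 on the plus strand, with the core of a p53 site in capitals.
Pcna: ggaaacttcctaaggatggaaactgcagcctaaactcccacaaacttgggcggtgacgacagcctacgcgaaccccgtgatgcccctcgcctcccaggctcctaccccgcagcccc
Ccne1: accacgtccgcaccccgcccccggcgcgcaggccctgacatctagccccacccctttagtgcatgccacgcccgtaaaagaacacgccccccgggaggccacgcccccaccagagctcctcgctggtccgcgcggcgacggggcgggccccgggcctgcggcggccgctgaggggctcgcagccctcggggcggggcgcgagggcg
Bub1b: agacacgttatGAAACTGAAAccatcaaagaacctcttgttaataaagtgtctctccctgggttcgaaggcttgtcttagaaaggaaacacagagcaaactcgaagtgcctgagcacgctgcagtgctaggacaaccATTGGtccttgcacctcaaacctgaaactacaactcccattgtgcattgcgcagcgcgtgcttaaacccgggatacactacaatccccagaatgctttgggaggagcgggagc
Cdkn1a: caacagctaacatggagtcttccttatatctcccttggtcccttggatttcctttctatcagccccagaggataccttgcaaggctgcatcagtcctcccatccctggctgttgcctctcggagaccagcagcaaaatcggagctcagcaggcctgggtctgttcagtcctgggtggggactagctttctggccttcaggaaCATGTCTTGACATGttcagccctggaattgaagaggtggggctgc

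Motifs were searched on both strands of the 300 bases from 250 before to 50 after each start, where matches of different motifs may overlap. The E2F words (TTT, then CC, CG, GC or GG, then CGC) lay in 10 of the 39 member promoters (25.6%), against 2.6% of 27025 genes. In the G1/S and replication genes they lay in 9 of 12, namely Cdk2, Cdc6, Cdt1, Mcm3, Mcm5, Mcm6, Mcm7, Lig1 and Uhrf1. The CHR element (TTTGAA) lay in 15 of 39 (38.5%), against 20.2% of genes, and in 13 of the 17 G2 and mitosis genes. CCAAT lay in 29 of 39 (74.4%), against 41.1% of genes, and in 16 of those 17. The response element core (GAAA, any 2 bases, GAAA) was found in Bub1b alone (2.56%), against 3.99% of genes. The p53 core (CATG, any 6 bases, CATG), added after the data were seen, was found in Cdkn1a alone, against 0.833% of genes. A match is a description of letters, and the data hold no measurement of binding. Ccnd1, Ccnd2, Ccne2, Gmnn, Mcm4, Ccna2, Aurkb, Tpx2 and Stmn1 had no entry in the table.

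Of the 48 members, 13 had enough counts to be tested: Ccnd1, Ccnd2, Cdk4, Cdkn1a, Cdkn1b, Ccne1, Cdt1, Mcm6, Pcna, Mki67, Tpx2, Kif11 and Hmgb2. The other 35 had 13 to 335 counts each over all libraries and held 6.9% of the members' counts; they are described as sums and pooled counts further on. Tests used edgeR's quasi-likelihood test over 4720 genes with Benjamini-Hochberg adjustment, and a gene passed at an adjusted p under 0.05 without a fold threshold. In bulk RNA, fewer cells of a type and less RNA per cell cannot be told apart. Each ligand was compared with Ctrl alone, and also over 22 matched backgrounds: Ctrl, the 6 other ligands and their 15 pairs, each with and without the ligand. The averaged log2 fold change is the mean of these 22 log2 differences. The single and averaged comparisons share libraries, and all comparisons with Ctrl share the same 3.

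Given alone, the ligands mostly raised Cdkn1a and Ccnd2, and they moved Pcna in both directions. PAM passed in 2 of the 13 tested members, Mcm6 and Pcna, both lower, while 17.3% of all tested genes passed. LPS passed in 5, with Ccnd2, Cdkn1a and Tpx2 higher and Cdk4 and Pcna lower, against 29.9% of all genes. HMW passed in 0 members by edgeR and in 0 by DESeq2, with 3 at an unadjusted p under 0.05, against 1.42% of all genes. Zymosan passed in 2, Cdkn1a higher and Mcm6 lower (9.15% of all genes). SeV passed in 3, all higher: Ccnd1, Ccnd2 and Cdkn1a (19.2% of all genes). The 4 that passed with cGAMP were Ccnd2, Ccne1, Cdkn1a and Pcna, all higher (21.8% of all genes). The 3 with CpGB were Ccnd2 and Cdkn1a, higher, and Pcna, lower (21.1% of all genes). Without Ctrl replicate 3, 3 members passed with LPS, without Ctrl replicate 1, 1 passed with HMW, and without any 1 Ctrl library or without Zymosan replicate 1 or 2, 1 passed with Zymosan. As shares of the 13 the counts with all libraries were 15.4% for PAM, 38.5% for LPS, 15.4% for Zymosan, 23.1% for SeV, 30.8% for cGAMP and 23.1% for CpGB. The median log2 fold change of the 13 was 0.41 for PAM, -0.06 for LPS, 0.15 for HMW, -0.37 for Zymosan, 0.15 for SeV, 0.80 for cGAMP and -0.41 for CpGB, where the medians of all genes lay between -0.05 and 0.05.

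**Figure D1:**
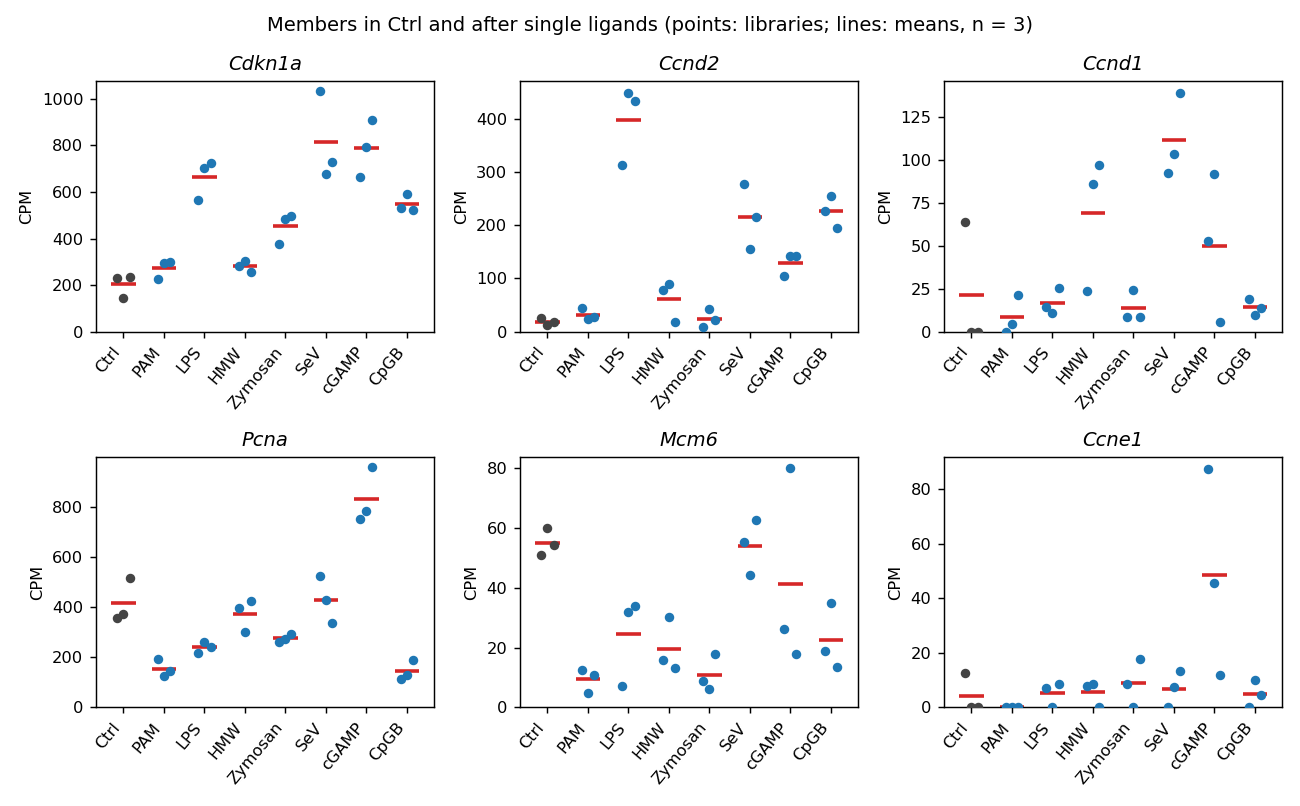
CPM (y axis) of Ccnd1, Ccnd2, Cdkn1a, Pcna, Ccne1 and Mcm6 in Ctrl and the 7 single-ligand groups (x axis), with 1 point per library and a bar at the mean of 3. Cdkn1a in LPS, SeV, cGAMP and CpGB lies at 522 CPM or above in every library, against 236 CPM or below in Ctrl, and Pcna in cGAMP lies above all other single-ligand libraries.

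Ccnd2 encodes cyclin D2, a partner of Cdk4 in early G1, and lies at chr6:127125162-127152193 on the minus strand. The Ctrl libraries held 25.4, 12.0 and 18.1 CPM, from 5 counts in all. LPS alone gave 312, 448 and 434 CPM, and CpGB alone gave 227, 255 and 195 CPM. Every library of these groups, and of SeV (276, 155 and 215 CPM) and cGAMP (105, 143 and 142 CPM), lay above every Ctrl library. The log2 fold change was 4.41 ± 0.48 (SE) with LPS (adjusted p = 1.54e-15), 3.57 ± 0.55 with CpGB (1.17e-08), 3.48 ± 0.56 with SeV (6.81e-08) and 2.80 ± 0.62 with cGAMP (1.23e-04). The libraries of PAM (43.9, 23.7 and 27.0 CPM), HMW (79.0, 90.2 and 17.6 CPM) and Zymosan (8.72, 42.5 and 22.1 CPM) overlapped those of Ctrl, and none of these ligands passed.

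Over the matched backgrounds, LPS had the largest averaged value of the 7 ligands for Ccnd2. The 22 groups with LPS lay between 230.4 CPM (LPS + Zymosan + cGAMP) and 719 CPM (LPS + CpGB), with a median of 460.4 CPM. The same 22 backgrounds without LPS lay between 18.5 CPM (Ctrl) and 275 CPM (cGAMP + CpGB), with a median of 132 CPM. All 22 backgrounds were higher with LPS, with an average of 1.95 ± 0.06 on the log2 scale (adjusted p = 3.5e-81), and by 1.99 ± 0.06 without the 6 libraries that stood apart. Ccnd2 also rose with CpGB (0.87 ± 0.07, adjusted p = 3.75e-26, higher in 21 of 22) and with SeV (0.78 ± 0.07, 8.3e-22, higher in 16 of 22 by mean CPM). With cGAMP the averaged log2 fold change was 0.55 ± 0.07 (2.54e-12), yet only 12 of the 22 backgrounds were higher and the pooled levels were 241 CPM with and 241 CPM without it. Small averaged values passed with PAM (0.23 ± 0.07, 6.51e-03) and, as lower, with Zymosan (-0.20 ± 0.08, 0.0358). The PAM value did not pass in a fit without the libraries numbered 3 (0.503) or with library size alone as the scaling (0.16). The Zymosan value did not pass without Ctrl replicate 1 (0.0966), without Ctrl replicate 3 (0.0731), or in fits without the libraries numbered 2 (0.133) or 3 (0.108). An antisense gene, 9330179D12Rik, overlaps Ccnd2 and is listed in the table, and the sources used here do not say whether counting used strand.

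Ccnd1, cyclin D1, was high in a few SeV and HMW groups and low wherever PAM was present. Among the Ctrl libraries, replicate 1 held 63.5 CPM and the other two held none. SeV alone gave 92.1, 103 and 139 CPM, all above Ctrl, with a log2 fold change of 2.59 ± 0.65 (adjusted p = 1.06e-03), where the adjusted p was 0.146 in a fit without the libraries numbered 3. HMW alone gave 23.7, 85.9 and 96.8 CPM and cGAMP 52.4, 91.4 and 5.90 CPM, both overlapping Ctrl. HMW + SeV held 103, 86.2 and 127 CPM and SeV + cGAMP 86.6, 60.1 and 77.5 CPM, whereas PAM + SeV held 0, 5.93 and 0 CPM. The level with SeV was thus low in each PAM + SeV library and was 15.9, 22.2 and 6.23 CPM in SeV + CpGB. Tests of whether a second ligand changed the log2 effect of SeV on Ccnd1 did not pass. They gave -4.28 ± 1.54 for PAM (adjusted p = 0.195) and -2.50 ± 1.17 for CpGB (0.239). Over the backgrounds, Ccnd1 fell with PAM by 1.73 ± 0.20 on the log2 scale (adjusted p = 1.53e-14), with 109 counts in the groups with PAM and 418 in those without, and lower mean CPM in 20 of 22. It also passed with CpGB (-1.09 ± 0.26, 1.9e-04, lower in 19 of 22) and with LPS (-0.53 ± 0.24, 0.0443, lower in 14 of 22). All 5 Ctrl counts of Ccnd1 lay in Ctrl replicate 1. Without that library Ctrl holds no count, and the averaged value was -1.51 for PAM, -0.86 for CpGB and -0.30 for LPS. In a fit without the libraries numbered 2, PAM + SeV holds no count, and the averaged value was -0.91 for CpGB and -0.26 for LPS. A group without a count can leave the test without a usable error, so these fits do not decide whether the calls hold. The LPS value did not pass in a fit without the filter on low counts (0.127).

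Cdk4, the kinase partner of the D cyclins, was lower with LPS. The Ctrl libraries held 63.5, 24.0 and 36.3 CPM and the LPS libraries 21.8, 5.34 and 4.25 CPM, which did not overlap. The single comparison passed narrowly (log2 fold change -2.09 ± 0.83, adjusted p = 0.0442), and it did not pass without Ctrl replicate 1 (0.244), Ctrl replicate 3 (0.0872), LPS replicate 2 (0.151) or LPS replicate 3 (0.177), nor without the 6 libraries apart (0.0525). Over the matched backgrounds Cdk4 fell by 1.08 ± 0.16 on the log2 scale (adjusted p = 8.35e-10), with 171 counts in the groups with LPS and 381 in those without, and was lower in 18 of 22. Cdk4 lies at chr10:127063534-127067920 and overlaps Tspan31 on the opposite strand, so reads of the 2 genes may not be separable. Ccnd3, the third D cyclin, had 139 counts in all libraries.

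Cdkn1a, the p21 inhibitor of cyclin-dependent kinases and a classical p53 target (chr17:29090976-29100727, plus strand), was the member that changed in most groups. Its Ctrl libraries held 229, 144 and 236 CPM. SeV alone gave 1032, 678 and 729 CPM, cGAMP 664, 794 and 909 CPM, and LPS 566, 705 and 723 CPM. CpGB gave 530.0, 591 and 522 CPM and Zymosan 375, 486 and 496 CPM, so that all libraries of these 5 ligands lay above all Ctrl libraries. The log2 fold changes were 1.96 ± 0.22 with SeV (adjusted p = 7.91e-15), 1.95 ± 0.22 with cGAMP (6.13e-15), 1.71 ± 0.22 with LPS (6.18e-12), 1.42 ± 0.23 with CpGB (4.59e-08) and 1.16 ± 0.23 with Zymosan (6.2e-05). PAM (226, 294 and 297 CPM), which overlapped Ctrl, did not pass (adjusted p = 0.281). HMW (284, 305 and 255 CPM) lay above all Ctrl libraries too, but did not pass either (0.617).

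Across the combinations the lowest group was Ctrl and the highest was Zymosan + SeV, with 1228, 1254 and 1237 CPM. All 63 conditions had a log2 fold change above 0, from 0.42 to 2.59, and 61 of them passed as higher than Ctrl. With Zymosan its mean CPM was higher in each of the 22 backgrounds (log2 fold change 0.49 ± 0.03, adjusted p = 2.95e-31), with a median of 686 CPM over the backgrounds without it and 867 CPM with it. SeV raised it by 0.56 ± 0.03 (3.77e-37, higher in 18 of 22), LPS by 0.42 ± 0.03 (4.45e-25, higher in 12 of 22), cGAMP by 0.39 ± 0.03 (1.52e-22, higher in 15 of 22) and HMW by 0.20 ± 0.03 (1e-06, higher in 16 of 22), where the HMW value did not pass after thinning to the lowest total (0.149). With LPS the mean CPM was thus lower in 10 of the 22 backgrounds, which were not tested one by one. CpGB did not pass over the 22 backgrounds, and its groups were the lower ones in 17 of 22.

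Cdkn1b, the p27 inhibitor, passed in 0 of the 63 conditions against Ctrl by edgeR and by DESeq2, with 0 at an unadjusted p under 0.05. Its Ctrl libraries held 25.4, 24.0 and 45.4 CPM, from 9 counts. Over the matched backgrounds it rose with PAM by 0.57 ± 0.12 on the log2 scale (adjusted p = 2.33e-05), with 511 counts in the groups with PAM and 307 in those without, and was higher in 17 of 22. The highest group was PAM + HMW + Zymosan (60.0, 67.7 and 50.0 CPM) and the lowest HMW + SeV + cGAMP (8.32, 17.7 and 5.75 CPM), a group that includes 1 of the libraries apart. Without the 6 libraries the averaged value for PAM was 0.53 ± 0.12 (9.86e-05).

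**Figure D2:**
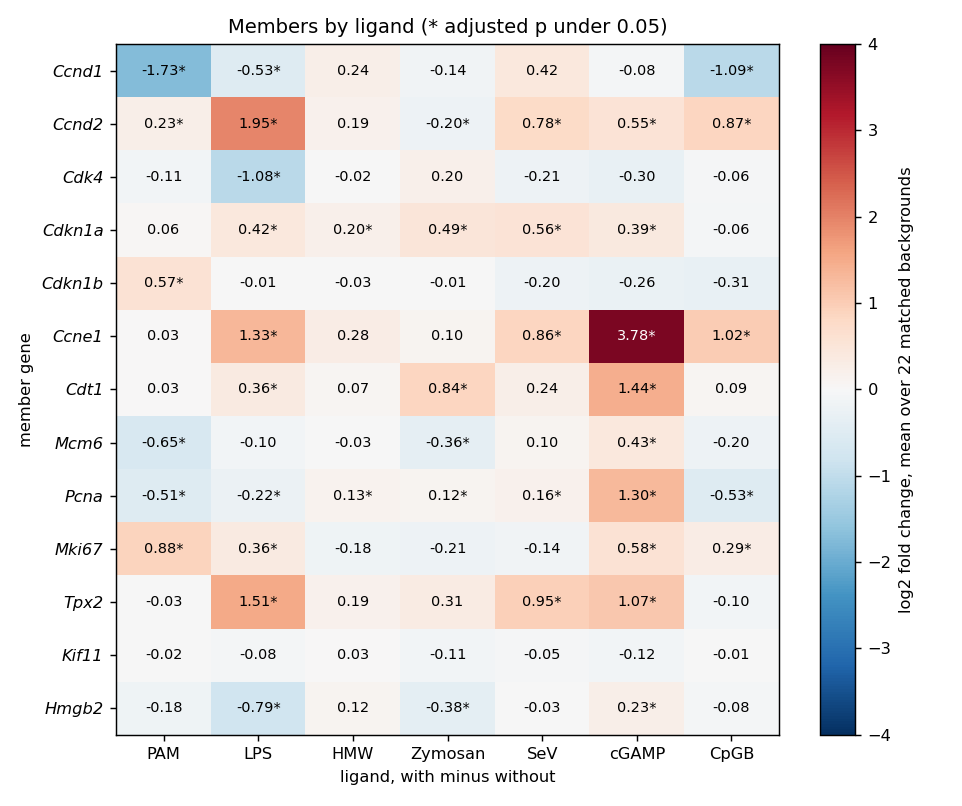
Averaged log2 fold change over 22 matched backgrounds (colour and number) of the 13 tested members (rows) for each of the 7 ligands (columns), where an asterisk marks an adjusted p under 0.05. The row of Ccne1 reaches 3.78 with cGAMP, and Ccnd2 reaches 1.95 with LPS. The Ccne1 and Tpx2 values include a group without a count, and the text gives those without it.

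Over the matched backgrounds the 7 ligands passed in different numbers of the 13 tested members. LPS passed in 10 (6 higher, 4 lower; median of the 13 log2 fold changes -0.01 and of all tested genes -0.03), against 59.3% of all genes. cGAMP passed in 9, all higher (median 0.43, all genes -0.06), against 58.8% of all genes, with 27.6% of all genes higher and 31.1% lower. PAM passed in 6 (3 higher, 3 lower; median -0.02, all genes -0.01), against 39.9%. Zymosan passed in 6 (3 higher, 3 lower), against 41.5% of all genes. SeV passed in 5, all higher, against 37.4%, and CpGB in 5 (3 higher, 2 lower), against 37.0%. HMW passed in 2, both higher, against 10.8%. As shares of the 13 these were 76.9% for LPS, 69.2% for cGAMP, 46.2% for PAM and for Zymosan, 38.5% for SeV and for CpGB, and 15.4% for HMW. The differences from the shares of all genes were not tested. The medians of the 13 were -0.01 for Zymosan, 0.16 for SeV, -0.06 for CpGB and 0.12 for HMW, and those of all genes -0.03, -0.04, 0.005 and 0.03.

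With cGAMP, Pcna, Ccne1 and Cdt1 of the G1/S role were higher in each of the 22 matched backgrounds. Pcna, the polymerase clamp (chr2:132249162-132253314, minus strand), held 356, 372 and 517 CPM in Ctrl and 752, 783 and 956 CPM with cGAMP alone, without overlap (log2 fold change 0.98 ± 0.20, adjusted p = 2.29e-05). The call was lost when all libraries were thinned to the lowest total (adjusted p = 0.0936), and the value lies just under the log2 fold change of 1 that was tried as a stricter call rule. Over the 22 backgrounds, groups with cGAMP ran from 332 CPM (LPS + cGAMP + CpGB) to 901 CPM (HMW + Zymosan + cGAMP), with a median of 507 CPM. The same backgrounds without cGAMP ran from 145 CPM (CpGB) to 429.5 CPM (SeV), with a median of 205 CPM. Each of the 22 backgrounds was higher with cGAMP, by 1.30 ± 0.04 on the log2 scale (adjusted p = 8.49e-76), or 1.34 ± 0.04 without the 6 libraries apart (8.58e-100).

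Ccne1, cyclin E1, the partner of Cdk2 at the start of S phase (chr7:38097984-38107534, minus strand), was low in most groups without cGAMP, with a median of 7.26 CPM over the 22 backgrounds. The highest of these backgrounds, LPS + CpGB, held 49.4 ± 15.5 CPM (SD, n = 3), about as much as cGAMP alone (48.3 CPM), and passed as higher than Ctrl (3.45 ± 1.14, adjusted p = 0.0109). In Ctrl 1 count was found, in replicate 1 (12.7 CPM), and cGAMP alone gave 87.4, 45.7 and 11.8 CPM from 20 counts. The lowest cGAMP library thus lay below that Ctrl library, the ratio was 11.9 with a 95% counting interval of 1.90 to 492, and the call (adjusted p = 0.0251) did not pass without Ctrl replicate 2 (0.0955), Ctrl replicate 3 (0.146) or cGAMP replicate 1 (0.127). In combinations the counts were larger: cGAMP + CpGB held 219, 185 and 225 CPM and LPS + cGAMP 182, 180 and 129 CPM. With all libraries, the 22 groups with cGAMP ran from 48.3 to 209.9 CPM and all 42 groups without it from 0 to 60.2 CPM, and all 22 backgrounds were higher with it. Pooled over the backgrounds, 1428 counts with cGAMP stood against 125 without, a ratio of 11.7. Since PAM alone held no count of Ccne1, the averaged log2 fold change was taken over the 20 pairs of groups without PAM alone and PAM + Zymosan, and was 3.52 ± 0.15 (adjusted p = 3.39e-60).

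The highest group without cGAMP was HMW + SeV + CpGB, whose library labelled replicate 1 stood apart from its group and held 149.7 CPM of Ccne1, against 13.8 and 17.1 CPM in the others. In HMW + cGAMP + CpGB, the library labelled replicate 1 held 6.21 CPM, against 252 and 237 CPM in the others, and its Pcna level was 205.0 CPM against 548 and 537 CPM. Without the 6 libraries apart, 1408 counts stood against 125, a ratio of 12.0 (95% counting interval 10.0 to 14.6). The highest library without cGAMP then held 61.2 CPM and the lowest with it 11.8 CPM. Ccne1 also rose with LPS (1.14 ± 0.20, adjusted p = 3.22e-07), CpGB (0.82 ± 0.22, 1.31e-03) and SeV (0.67 ± 0.21, 9.11e-03) over the 20 pairs of groups, whereas the value for PAM was 0.25 ± 0.20 (0.354). Over all 22 pairs, which include PAM alone without a count, the averaged values were 0.86 for SeV (7.5e-04) and 1.02 for CpGB (6.83e-05). Without the libraries numbered 2 these were 0.72 and 0.80. Groups without a count, such as PAM alone, can leave the test without a usable error, so that fit does not decide whether the calls hold. The SeV value did not pass in a fit without the libraries numbered 3 (0.051).

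**Figure D3:**
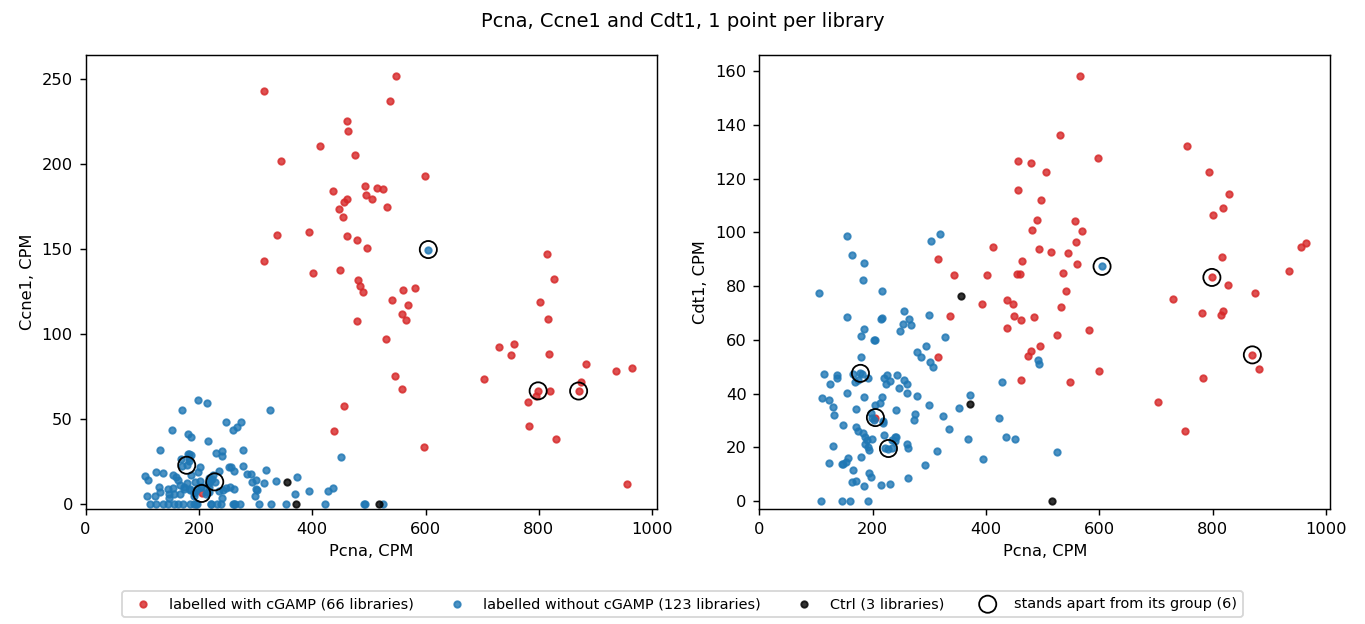
CPM of Ccne1 (left, y axis) and Cdt1 (right, y axis) against CPM of Pcna (x axis) in the 192 libraries, coloured by whether the label holds cGAMP, with Ctrl in black and the 6 libraries that stand apart ringed. Among the ringed libraries, the one labelled HMW + cGAMP + CpGB replicate 1 lies at 205.0 CPM of Pcna and 6.21 CPM of Ccne1, and the one labelled HMW + SeV + CpGB replicate 1 at 605 and 149.7 CPM.

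Cdt1, which loads the Mcm helicase at replication origins (chr8:122568015-122573554, plus strand), had 9 counts in Ctrl, with 76.2, 36.0 and 0 CPM, and did not pass with cGAMP alone (26.2, 45.7 and 94.4 CPM). Over the backgrounds it was higher with cGAMP in 22 of 22, with groups at 53.5 to 129 CPM against 11.0 to 77.9 CPM (log2 fold change 1.44 ± 0.10, adjusted p = 9.15e-33, and 1.49 ± 0.10 without the 6 libraries). Zymosan raised it as well, by 0.84 ± 0.11 (1.1e-12, higher in 20 of 22). The highest group, Zymosan + cGAMP + CpGB, held 158, 100.5 and 128 CPM. LPS passed with a small value (0.36 ± 0.11, 2.92e-03), with as many backgrounds higher as lower, and it did not pass without the libraries numbered 3 (0.0634). Cdt1 overlaps Gm20388 on the same strand, a gene that is not listed in the table.

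PAM and CpGB lowered Pcna. PAM alone held 194.5, 124 and 146 CPM and CpGB alone 114, 130.1 and 191 CPM, all below the Ctrl libraries, with log2 fold changes of -1.47 ± 0.25 (adjusted p = 3.26e-07) and -1.48 ± 0.25 (2.78e-07). LPS alone held 218, 261.5 and 242 CPM (-0.80 ± 0.23, 3.15e-03), which did not pass without Ctrl replicate 3 (0.126). Over the backgrounds Pcna fell with PAM by 0.51 ± 0.05 (5.75e-20, lower in 20 of 22), with CpGB by 0.53 ± 0.05 (4.48e-21, lower in 21 of 22) and with LPS by 0.22 ± 0.05 (2.91e-05, lower in 14 of 22). The rises with SeV (0.16, adjusted p = 3.69e-03), HMW (0.13, 0.0406) and Zymosan (0.12, 0.0329) were small, and those of HMW and Zymosan did not pass with DESeq2 (0.123 and 0.1) or in fits without the libraries numbered 2 (0.379 and 0.632). The SeV value did not pass with library size alone as the scaling (0.0791) or when thinned to the lowest total (0.766).

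Mcm6, a subunit of the replicative helicase, held 50.8, 60.0 and 54.4 CPM in Ctrl from 15 counts. PAM alone gave 12.5, 4.75 and 10.8 CPM (log2 fold change -2.52 ± 0.72, adjusted p = 5.64e-03) and Zymosan alone 8.72, 6.07 and 17.7 CPM (-2.16 ± 0.70, 0.0317), both without overlap with Ctrl. The Zymosan call did not pass without any 1 of the 3 Ctrl libraries (0.071 to 0.103), without Zymosan replicate 1 (0.0753) or without Zymosan replicate 2 (0.139). The PAM call did not pass in fits without the libraries numbered 2 (0.0886) or 3 (0.0518). Over the backgrounds Mcm6 fell with PAM (-0.65 ± 0.14, 2.38e-05) and passed as lower with Zymosan (-0.36 ± 0.14, 0.0311) and as higher with cGAMP (0.43 ± 0.14, 3.99e-03). The Zymosan and cGAMP values did not pass in fits without the libraries numbered 2 (0.637 and 0.067). Ctrl was the highest of the groups without cGAMP, at 55.1 CPM.

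The genes of G2 and mitosis did not move together with PAM. Among the members of this role with few counts, Ccna2, Birc5, Aurkb, Cenpa, Cenpe and Prc1 had lower pooled levels with PAM. Their counting intervals, which cover counting error only, lay below 1, and no such member of the role had an interval above 1. Of the 3 tested genes of the role, only Mki67, the proliferation antigen Ki-67, passed with PAM over the backgrounds, as higher. Its Ctrl libraries held 12.7, 12.0 and 45.4 CPM from 7 counts, and PAM alone gave 56.5, 52.2 and 48.7 CPM, without overlap but not passing the test. Over the backgrounds it rose with PAM by 0.88 ± 0.11 (adjusted p = 2.16e-13), with 670 counts against 348, and was higher in 20 of 22. With cGAMP it rose by 0.58 ± 0.11 (1.18e-06, higher in 18 of 22 by mean CPM). The values for LPS (0.36, 3.33e-03) and CpGB (0.29, 0.0328) passed too, but that of CpGB did not with DESeq2 (0.0665) or without the libraries numbered 2 (0.319) or 3 (0.18), and that of LPS not without the libraries numbered 1 (0.0527). The highest group was LPS + HMW + cGAMP, with 122, 76.6 and 66.0 CPM, and the lowest HMW + SeV, with 8.61, 14.4 and 10.2 CPM.

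Tpx2, a spindle assembly factor, was detected by 1 count in Ctrl (0, 0 and 9.07 CPM) and by 21.8, 37.4 and 34.0 CPM with LPS alone, from 18 counts. The ratio was 8.75 with a 95% counting interval of 1.38 to 364, and the call (adjusted p = 0.0303) did not pass without Ctrl replicate 1 (0.0931), Ctrl replicate 2 (0.114), LPS replicate 2 (0.0543) or LPS replicate 3 (0.0627). PAM + Zymosan held no count, so averaged values are given over the pairs of groups without it and PAM alone. They were 1.19 ± 0.17 with LPS (6.61e-11), 0.79 ± 0.17 with cGAMP (3.38e-05) and 0.69 ± 0.18 with SeV (1.02e-03). PAM + LPS + Zymosan was the highest group, at 109, 66.3 and 45.8 CPM. Kif11, a spindle kinesin, passed in 0 of the 63 conditions by edgeR and by DESeq2, with 0 at an unadjusted p under 0.05, and in 0 of the 7 averaged comparisons. Its group levels ran from 10.8 CPM (LPS + SeV + CpGB) to 48.3 CPM (SeV), with 25.8 CPM in Ctrl.

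Hmgb2, a chromatin protein of dividing cells, was lower with LPS and Zymosan. Ctrl held 127, 60.0 and 72.6 CPM and LPS alone 43.5, 37.4 and 38.3 CPM, which did not overlap, though the adjusted p was 0.0557. Over the backgrounds Hmgb2 fell with LPS by 0.79 ± 0.09 (3.6e-15, lower in 20 of 22) and with Zymosan by 0.38 ± 0.09 (1.44e-04, lower in 18 of 22 by mean CPM), and rose with cGAMP by 0.23 ± 0.09 (0.0126, higher in 18 of 22). The cGAMP value did not pass without the libraries numbered 2 (0.0984). Without the 6 libraries apart these values were -0.77, -0.38 and 0.27.

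Over all 63 conditions against Ctrl, 262 of 819 tests of a member in a condition passed (32.0%; 199 higher and 63 lower), against 28.3% of the tests over all genes. Ccnd2 was higher in 58 conditions, Ccne1 in 26, Tpx2 in 24, Cdt1 in 12, Mki67 in 6 and Ccnd1 in 5. Pcna was higher in 7 and lower in 32, and Mcm6 was lower in 17, Hmgb2 in 10 and Cdk4 in 4. DESeq2 gave fewer passing conditions for Tpx2 (7), Cdt1 (5), Mki67 (1) and Ccnd1 (2) and more for Cdk4 (8), and 58 for Ccnd2, 26 for Ccne1, 60 for Cdkn1a, 43 for Pcna, 19 for Mcm6 and 13 for Hmgb2. The median number of members that passed was 3 per single ligand, 4 per pair and 4 per triplet. Without the 6 libraries apart 313 tests passed. The conditions share the Ctrl libraries, so these counts are not independent of one another.

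In the 6 pairs of LPS, SeV, cGAMP and CpGB, each of which raised Ccnd2 and Cdkn1a alone, both genes lay below the product of the single folds. A pair interaction is the log2 difference between a pair and the product of its single-ligand folds over Ctrl, and 15 of 273 tests of a member and a pair passed (5.49%; 2 positive, 13 negative), against 4.65% of the tests over all genes, with 53 at an unadjusted p under 0.05. Of the negative ones 6 were of Ccnd2 and 7 of Cdkn1a. Ccnd2 in LPS + SeV held 460, 550 and 544 CPM, against 4627 CPM if the single folds had multiplied, which is an interaction of -3.11 ± 0.63 (adjusted p = 4.56e-05). In LPS + CpGB it held 811, 701 and 646 CPM, above every library of either ligand alone, yet the product of the single folds was 4855 CPM (-2.75 ± 0.63, 3.92e-04). Zymosan also raised Cdkn1a alone, but its pairs with these 4 ligands, at 0.583 to 0.684 times the product, did not pass (adjusted p = 0.0964 to 0.56). The pairs and the product share the single-ligand and Ctrl libraries.

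Cdkn1a in SeV + cGAMP held 823, 861 and 902 CPM, which overlapped both single ligands, against a product of 3164 CPM (interaction -1.84 ± 0.27, adjusted p = 5.65e-09). In PAM + CpGB it held 310.3, 313 and 361 CPM, below each CpGB library (522 to 591 CPM), with an interaction of -1.16 ± 0.31 (4.63e-03), which did not pass in a fit without the libraries numbered 2 (0.231) or when thinned to the lowest total (0.0714). Ccnd2 in the same pair held 110, 71.1 and 69.2 CPM, below each CpGB library as well, but its interaction did not pass. The positive interactions were both of Pcna, which PAM, LPS and CpGB each lowered alone. PAM + CpGB held 137, 163.5 and 192 CPM, which overlapped the libraries of either ligand alone, against a product of 54.0 CPM (1.60 ± 0.38, 8.93e-04), which did not pass in fits without the libraries numbered 2 (0.0509) or 3 (0.0515). PAM + LPS held 174.5, 175 and 192 CPM against a product of 89.7 CPM (1.07 ± 0.34, 0.0242), and this interaction did not pass without Ctrl replicate 3 (0.147) or in fits without the libraries numbered 2 (0.128) or 3 (0.438). Without Ctrl replicate 1, 23 interactions passed (2 positive, 21 negative).

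**Figure D4:**
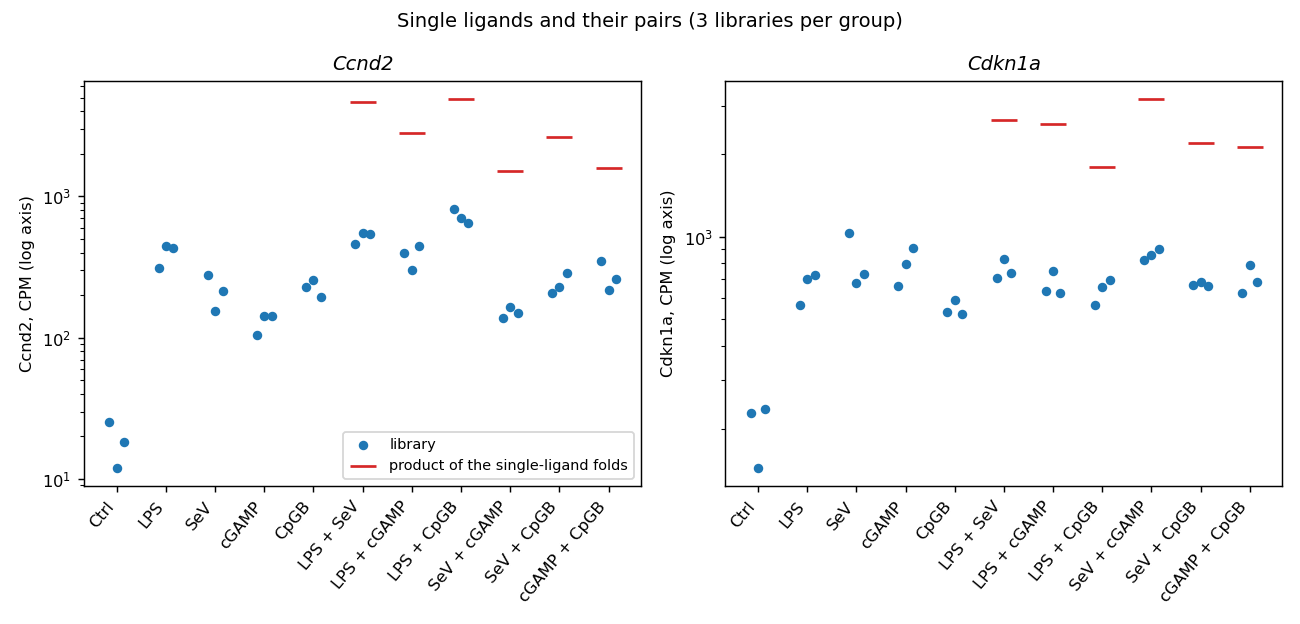
CPM (y axis, log scale) of Ccnd2 and Cdkn1a in Ctrl, LPS, SeV, cGAMP, CpGB and their 6 pairs (x axis), with 1 point per library and, for each pair, a line at the product of both single folds. Ccnd2 in LPS + SeV lies between 460 and 550 CPM, below the product of 4627 CPM, and Cdkn1a in SeV + cGAMP lies between 823 and 902 CPM, below 3164 CPM.

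With the number of ligands, Ccnd2 and Cdkn1a rose at each step. From Ctrl to the mean of the single ligands 3 members passed (18.8% of all genes did): Ccnd2 by 2.45 ± 0.58 (adjusted p = 4.67e-04), Cdkn1a by 1.30 ± 0.20 (1.17e-08) and Pcna by -0.51 ± 0.18 (0.0283), where the Pcna call did not pass without Ctrl replicate 1 (0.0571) or Ctrl replicate 3 (0.509). From singles to pairs 7 passed (34.0% of all genes), with Ccnd2 at 0.97 ± 0.11 (3.44e-14) and Cdkn1a at 0.50 ± 0.05 (4.57e-17), and with Ccnd1 (-0.77 ± 0.25, 9.92e-03) and Cdk4 (-0.61 ± 0.22, 0.0204) lower. The Ccnd1 call did not pass in a fit without the libraries numbered 3 (0.308), nor that of Cdk4 without those numbered 1 (0.198) or 3 (0.0966). From pairs to triplets 6 passed, all higher (27.1% of all genes), with Ccnd2 at 0.36 ± 0.06 (7.66e-09), Cdt1 at 0.46 ± 0.10 (2.88e-05) and Cdkn1a at 0.14 ± 0.03 (4.76e-05), the last not after thinning (0.0911). Tpx2 passed in that step at 0.50 ± 0.16 (7.6e-03), but not without PAM alone and PAM + Zymosan (0.27 ± 0.14, 0.168). These steps and the ligand effects above rest on the same libraries. Ccne1, with PAM alone and PAM + Zymosan left out, stood at 1.27 ± 0.34 from singles to pairs (1.55e-03) and 0.69 ± 0.17 from pairs to triplets (4.96e-04). With all groups in the means, the step of Ccne1 from singles to pairs was 1.50 and 1.62 in fits without the libraries numbered 1 or 2. Its step from pairs to triplets was 0.84 without those numbered 2. Groups without a count, such as PAM alone, can leave the test without a usable error, so these fits do not decide whether the calls hold.

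The 35 members with few counts were highest in Ctrl as a sum, but only 8 of them had Ctrl as their own highest group and 10 had no count there. They include most Mcm subunits, cyclins A and B, Cdk1, Top2a and the mitotic kinases, and the most abundant of them in Ctrl were Cenpa (15 counts, 55.1 CPM) and Gmnn (9 counts). Their summed level was 341 ± 9.38 CPM in Ctrl (SD, n = 3), the highest of the 64 groups, followed by HMW with 269 ± 16.8 CPM and SeV with 245 ± 40.8 CPM. The lowest groups were PAM + LPS + HMW with 80.9 ± 10.9 CPM, LPS + Zymosan with 83.5 ± 32.5 CPM and LPS + HMW + Zymosan with 87.2 ± 26.6 CPM. The median group stood at 198 CPM for singles, 129 CPM for pairs and 110 CPM for triplets. The 7 marker genes of myeloid progenitors summed to 0 to 48.0 CPM in the Ctrl libraries and to group means of 0 to 14.8 CPM in the 63 conditions. In Ctrl they rested on 6 counts of Kit and 1 of Ms4a3, with Cd34, Mpo, Elane, Prtn3 and Ctsg at 0. Ctrl was also the shallowest group, and the part of neither in this result was tested.

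Pooled over the 22 backgrounds, the sum of the 35 was 0.639 times as high with LPS as without (95% counting interval 0.593 to 0.687; 1209 against 1807 counts), 0.699 times with PAM and 0.764 times with Zymosan. Such intervals cover counting error only. How many of all genes with few counts have an interval below 1 was not worked out, so the counts of members that follow have no share of all genes beside them. With LPS 33 of the 35 members had a ratio below 1, and in 14 of them the interval lay below 1 (Cdk2, Gmnn, Mcm3, Mcm5, Rrm1, Rrm2, Tk1, Top2a, Ccnb1, Cdk1, Aurkb, Cenpa, Prc1 and Stmn1). Cenpa, the centromeric histone, had 51 counts with LPS and 135 without, a ratio of 0.361 (0.256 to 0.501), and in Ctrl alone 15 counts. Gmnn, the inhibitor of Cdt1, had 20 counts with LPS and 54 without, and 9 in Ctrl. With PAM 27 were below 1 and in 16 the interval was, Mcm5 among them (39 counts with and 78 without, ratio 0.455). In the fit without the filter, described below, 0 of the 35 passed as lower with PAM. Most of the 35 were below 1 with the other ligands too: 24 with HMW, 30 with Zymosan, 26 with SeV and 28 with CpGB. In the same order the interval lay below 1 in 4, 8, 5 and 6. With cGAMP 27 were below 1 but in only 2, Mcm3 and Mcm5, was the interval. The 11 low members of the G1/S role summed to a ratio of 0.79 with cGAMP (0.692 to 0.901), while Pcna, Ccne1 and Cdt1 rose. In the fit without the filter, described below, 0 of the 35 had an unadjusted p under 0.05 with cGAMP. The split by counts is not free of cGAMP, since Ccne1 had a median of 7.26 CPM without it and 137.7 CPM with it. The contrast of the low with the abundant members was not tested.

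Few of these members had an interval above 1. Bub1b, a spindle checkpoint kinase whose promoter stretch is printed above, had 115 counts with cGAMP and 25 without, a ratio of 4.72 (3.04 to 7.59), and was higher in 21 of 22 backgrounds and lower in none. Without the 6 libraries apart it had 109 and 25 counts (4.66, 2.99 to 7.51). With Zymosan the interval of Bub1b lay above 1 as well. Tyms, thymidylate synthase, had ratios of 1.46 with PAM, 1.50 with LPS and 1.66 with CpGB, each with an interval above 1, Cenpe had 2.10 with SeV and Ccnd3 1.56 with HMW. In a fit without the filter on low counts, over 14862 genes, Tyms passed as higher with PAM (0.80 ± 0.26, adjusted p = 0.0179; 1 of 35 members against 12.4% of all genes) and with CpGB (0.96 ± 0.27, 4.55e-03), where Cenpa passed as lower (2 of 35 against 10.9%). With LPS 4 passed, all lower: Cenpa (-1.50 ± 0.27, 2.66e-07), Cdk1 (-1.06 ± 0.29), Top2a (-0.82 ± 0.29) and Stmn1 (-0.59 ± 0.22), against 19.9% of all genes. With Zymosan Mcm7 passed as lower (12.6% of all genes). None passed with HMW (3.58%), SeV (10.3%) or cGAMP (19.7%), with 0, 1 and 0 at an unadjusted p under 0.05. In 33 of the 35 members at least 1 group held no count, so that this fit gave no usable error for many of them, Bub1b included.

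**Figure D5:**
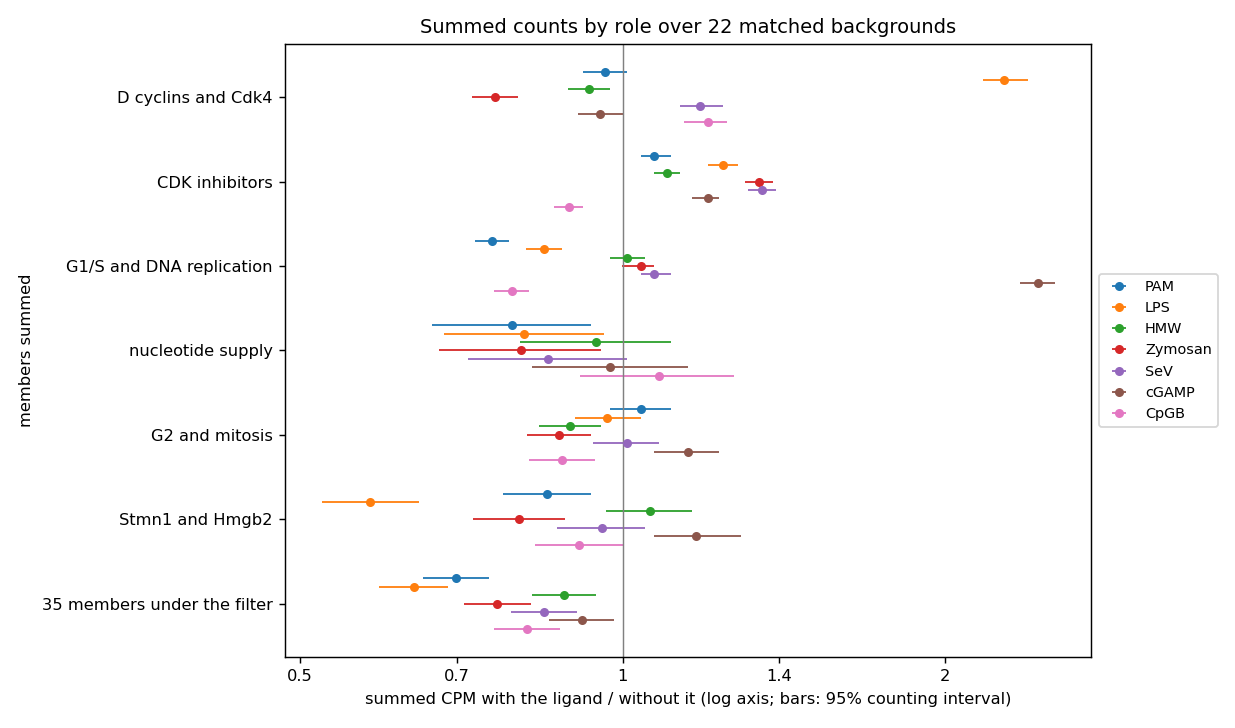
Ratio of the summed CPM with a ligand to that without it, pooled over 22 matched backgrounds (x axis, log scale), for the members of each of 6 roles and the 35 members with few counts (y axis) and each of the 7 ligands (colours), with 95% counting intervals as bars. G1/S and DNA replication reaches 2.44 with cGAMP, and D cyclins and Cdk4 reach 2.27 with LPS.

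Summed by role, the largest ratios were those of the G1/S genes with cGAMP and of the D cyclins and Cdk4 with LPS. The D cyclins and Cdk4 were 2.27 times as high with LPS (95% counting interval 2.17 to 2.39, higher in 22 of 22), and the highest group was LPS + CpGB with 748 ± 67.8 CPM, against 81.0 ± 62.6 CPM in Ctrl. Without Ccnd2 that sum turned lower, as the values of Ccnd1 and Cdk4 above do. The CDK inhibitors were 1.35 times as high with SeV and 1.34 times with Zymosan, a sum in which Cdkn1a holds most counts and which without Cdkn1a turned lower with SeV (log2 ratio -0.13). The G1/S and replication genes were 2.44 times as high with cGAMP (2.35 to 2.53, higher in 22 of 22) and 0.755 times with PAM (lower in 22 of 22). Their highest group was HMW + Zymosan + cGAMP with 1134 ± 84.4 CPM and their lowest PAM with 208 ± 31.8 CPM. Pcna holds 11860 of the 17631 counts of this role, so the sum mostly follows Pcna. The 11 members of the role with few counts were lower with cGAMP as a sum, as given above. The G2 and mitosis genes spanned the narrowest range in ratio of the 6 roles, from 97.4 ± 24.2 CPM in Zymosan + SeV + CpGB to 204 ± 36.6 CPM in SeV. The nucleotide genes were highest in Ctrl (52.3 ± 9.82 CPM), where Rrm1 and Rrm2 held 5 counts each and Tyms 1, and lowest in PAM + LPS + HMW (7.57 ± 6.65 CPM). Stmn1 and Hmgb2 were 0.581 times as high with LPS. The sum of all 48 was highest in Zymosan + cGAMP, at 2695 ± 270 CPM, and lowest in PAM, at 916.5 ± 68.4 CPM. In Zymosan + cGAMP, Cdkn1a held 1094 CPM and Pcna 813 CPM, so this sum mostly follows an inhibitor of the cycle and Pcna. The 35 members with few counts were highest in Ctrl instead.

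As a description over the 64 group means of log2(CPM + 10), which share no library but share the ligands, the most alike tested members were Cdkn1a and Tpx2 (r = 0.736), Cdt1 and Pcna (0.691), Ccne1 and Cdt1 (0.676) and Ccne1 and Pcna (0.666). The most opposed were Ccnd2 and Cdk4 (-0.749).

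Other genes of the pathway, in 5 lists of 154 genes, were mostly too low to test: 31 of the 153 in the table were tested. With cGAMP 19 of 31 passed (61.3%; 12 higher, 7 lower), against 58.8% of all genes, and with LPS 18 (58.1%; 8 and 10), against 59.3%. With CpGB 14 passed (45.2%; 7 and 7), against 37.0%, with Zymosan 12 (38.7%; 8 and 4), against 41.5%, and with SeV 12 (38.7%; 9 and 3), against 37.4%. With PAM 11 passed (35.5%; 5 and 6), against 39.9%, and with HMW 3 (9.68%; 2 and 1), against 10.8%. These differences in share were not tested. Mxd1, a repressor that competes with Myc for Max, rose with cGAMP (1.35 ± 0.06, adjusted p = 4.97e-59; 441 against 211 CPM). E2f5, a repressive E2F family member, rose with LPS (1.56 ± 0.13, 2.32e-24; 57.7 against 21.1 CPM, higher in 22 of 22). Plk2, a stress-induced polo-like kinase, rose with Zymosan (1.49 ± 0.05, 2.92e-81; 627 against 239 CPM, higher in 22 of 22), and the growth-arrest gene Gadd45b with LPS (1.19 ± 0.04, 5.56e-78; higher in 22 of 22). Pttg1, securin, rose with LPS (0.93 ± 0.08, 4.87e-26), while Rfc2, a clamp loader subunit, fell with PAM (-1.02 ± 0.17, 5.44e-08) and Anapc5, of the anaphase-promoting complex, fell with Zymosan (-0.48 ± 0.11, 1.28e-04). Pold3, of DNA polymerase delta, rose with cGAMP (0.42 ± 0.11, 5.52e-04), and Cdk7, the only tested gene among the other CDK regulators, passed with 0 of the 7, with 0 at an unadjusted p under 0.05. The medians of the 31 log2 fold changes lay between -0.09 (SeV) and 0.09 (HMW). The lists were drawn up with earlier results of these data known.

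As a check of the labelled cell type, summed dendritic cell markers lay at 5841 to 6156 CPM in the Ctrl libraries and 6091 to 8463 CPM in the means of the 63 conditions, though Flt3 and Zbtb46 had only 95 and 99 counts in all libraries and Cd209a had 3. Macrophage markers lay at 14100 to 15370 CPM in Ctrl and 9160 to 15260 CPM in the condition means, and neutrophil markers at 644 to 877 CPM and 592 to 1038 CPM. Markers of T or NK cells were at most 2.82 CPM, of B cells at most 17.7 CPM, of mast cells or basophils at most 12.0 CPM, and erythroid markers were at 0. The 4 markers of plasmacytoid dendritic cells lay at 38.1 to 60.0 CPM in Ctrl and 21.6 to 218 CPM in the condition means (median 136 CPM, highest in PAM + LPS). Of these Tcf4 held 4128 counts, against 35 of Siglech, 45 of Spib and 89 of Ccr9, and the part of these markers in the results was not tested.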

How the data were processed

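RNA of 192 mouse dendritic cell libraries was measured as UMI counts per gene, deposited by the authors as 1 table. Per the submitters' processing notes BWA 0.7.15 and build mm10 were used. The annotation, the collapsing of UMIs and the use of strand are not given in the sources used here. Total counts ran from 46564 to 610234 per library.

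Groups came from the labels. Counts were tested with edgeR 4.0.16 (R 4.3.3; TMM factors, quasi-likelihood, filter on low counts by group, 1 model of 64 group means with 128 residual degrees of freedom) in 94 contrasts, with Benjamini-Hochberg adjustment over 4720 genes. The code was tested on simulated data. CPM used TMM-scaled library sizes. Intervals are 95% counting intervals, which cover counting error only. Libraries of a group differed by more than sampling noise (chi-square per degree of freedom 1.11 to 4.63). Alternatives were RLE factors, library size alone, DESeq2 1.42.0, no filter, a replicate block, thinning, left-out libraries, a fold threshold and left-out groups.

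The members and lists were chosen with earlier results of these data known. Genes named are the 3 members with the smallest adjusted p per ligand, the most abundant member of each role, 8 members by name, the 2 leading genes of each pathway list and the extreme groups of each sum. Others, such as Bub1b, Cenpa, Gmnn, Tyms and Kif11, were named after their values were seen.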

Additional observations from a re-analysis of the deposited data

Results flagged for a closer look

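In 15 cases the effect of 1 ligand on a member differed with and without a second ligand, by edgeR's test of the interaction itself, given here as log2 values with the adjusted p over all tested genes. For Ccnd2 the interaction was -3.37 in SeV + CpGB (2.59e-05), -3.28 in SeV + cGAMP (1.06e-04), -3.11 in LPS + SeV (4.56e-05), -2.87 in LPS + cGAMP (4.91e-04), -2.75 in LPS + CpGB (3.92e-04) and -2.54 in cGAMP + CpGB (7.74e-03). For Cdkn1a it was -1.96 in LPS + cGAMP (5.39e-10), -1.84 in SeV + cGAMP (5.65e-09), -1.78 in LPS + SeV (2.3e-08), -1.67 in SeV + CpGB (6.23e-07), -1.60 in cGAMP + CpGB (1.94e-06), -1.47 in LPS + CpGB (7.82e-06) and -1.16 in PAM + CpGB (4.63e-03). For Pcna it was 1.60 in PAM + CpGB (8.93e-04) and 1.07 in PAM + LPS (0.0242). The interactions share single-ligand and Ctrl libraries. Without Ctrl replicate 3 the adjusted p was 0.0507 for Ccnd2 in cGAMP + CpGB and 0.147 for Pcna in PAM + LPS. In fits without the libraries numbered 2 it was 0.231 for Cdkn1a in PAM + CpGB, 0.0509 for Pcna in PAM + CpGB, 0.128 for Pcna in PAM + LPS and 0.139 for Ccnd2 in cGAMP + CpGB. Without those numbered 3 it was 0.0515 and 0.438 for Pcna in these pairs and 0.0685 for Ccnd2 in cGAMP + CpGB.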

How the results depend on the processing

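Of 409 counts of passing genes recomputed under an alternative, 338 stayed within 1.5 times the main count and 71 did not. Of 3638 single values 3389 were counted as the same, 133 no longer passed, 43 newly passed and 66 moved. The remaining 7 were sums by role that changed sign. A value counted as the same need not have kept its sign. Of 93 member calls 40 passed under each alternative run for them other than the fold threshold. The causes were not tested.

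Thinning all libraries to the lowest total left 1 member for PAM and 3 for LPS against Ctrl, and over the matched backgrounds 2 for PAM, 3 for LPS, 0 for HMW, 1 for Zymosan, 2 for SeV, 4 for cGAMP and 2 for CpGB. It left 2 from singles to pairs and 1 from pairs to triplets, and 3, 8, 1, 6, 7, 8 and 6 pathway genes for the ligands in the order PAM, LPS, HMW, Zymosan, SeV, cGAMP and CpGB. Thinning took most members below the filter, since depth limits them. With a log2 fold change of at least 1 required, the members in the same order were 1, 4, 0, 0, 0, 4 and 2, the steps in number of ligands 1 (singles to pairs) and 0 (pairs to triplets), and the pathway genes 2, 3, 0, 2, 0, 6 and 1. With HMW, RLE factors, library size alone, DESeq2 and the left-out PAM groups each gave 1 member, and the last also 1 pathway gene. Without the filter 4 members passed with PAM alone, 1 with Zymosan alone, 5 in singles against Ctrl and 7 pathway genes with HMW. With only the libraries of the ligand and Ctrl fitted, 1 passed for PAM and 3 for LPS.

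Leaving out replicates gave 1 to 3 members for PAM alone, 2 to 6 for LPS alone, 0 to 1 for HMW alone and 1 to 2 for Zymosan alone. Over the backgrounds it gave 1 to 2 for HMW, 3 to 6 for Zymosan and 2 to 6 for CpGB, 11 to 23 interactions, 2 to 5 members in singles against Ctrl, 4 to 7 from singles to pairs, 3 to 6 from pairs to triplets, and 7 to 13 pathway genes for PAM and 0 to 4 for HMW.

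Without its most abundant member, the log2 ratio of a role sum changed sign for the D cyclins and Cdk4 with LPS (-1.17) and CpGB (-0.79), the CDK inhibitors with SeV (-0.13) and cGAMP (-0.21), and the G1/S genes with LPS (0.039) and CpGB (0.14), and thinning gave -0.062 for G2 and mitosis with cGAMP. Against Ctrl, the median of all genes shifted by -0.183 with RLE factors and -0.323 with library size alone. Libraries of different groups had a mean r of 0.00828 with equal replicate numbers and -0.00414 with other numbers. In some groups depth went with the number. Replicate 1 was the shallowest in Ctrl (61823 counts, against 68941 and 89530) and in LPS (133379, against 184640 and 229979). In Zymosan + SeV the shallowest was replicate 2 (46564). Whether the numbers mark a shared step of handling was not tested. The fit with the replicate block gave the same member counts for each ligand, 264 passing tests over the 63 conditions and 15 interactions.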
